A study of Mus musculus with 6 samples.

Results

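The genes described here encode 8 enzymes of asparagine, proline and glutamine metabolism: Asns, Pycr1, Aldh18a1, Got1, Got2, Gpt2, Glul and Prodh. They were chosen by name, for supplying proline to collagen and asparagine under amino acid stress, with earlier results of these data known. All 8 were among the 18124 genes of the deposited table. RNA was sequenced from mesenchymal stem cells of mouse quadriceps muscle, in 3 libraries from cells kept in senescent macrophage medium and 3 from cells kept in control macrophage medium. Both groups came from the same kind of cells. These were sorted from 6 naïve male Col1-GFP mice as cells positive for a collagen 1-driven green fluorescent protein and for Sca-1, expanded to passage 4, and kept for 72 hours in conditioned medium that was renewed each day. Senescent medium came from bone marrow-derived macrophages of wild type mice exposed to H2O2 at 300 µM for 3 hours, again for 3 hours after 3 days, and then cultured for 14 days. Control medium came from non-senescent macrophages, and the labels do not give their culture time. Each medium was pooled from collections of 48 hours each. Whether the 3 libraries of a medium stem from different mice, cultures or medium pools is not stated, so the tests rest on library-to-library spread that could be purely technical.

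These enzymes share a small set of substrates. Asparagine synthetase, the product of Asns, moves an amide group from glutamine to aspartate. Proline is made from glutamate by the product of Aldh18a1, which forms pyrroline-5-carboxylate, and by that of Pycr1, which reduces this intermediate to proline in mitochondria; proline dehydrogenase, the product of Prodh, runs the last step backwards. The aminotransferases encoded by Got1 in the cytosol, Got2 in mitochondria and Gpt2 in mitochondria exchange amino groups between glutamate and aspartate or alanine, and glutamine synthetase, the product of Glul, makes glutamine from glutamate. Collagen is rich in proline, and fibroblast-like cells that secrete it draw on this supply. ATF4, a transcription factor translated more when amino acids run short, binds with C/EBP partners to composite DNA elements and is known to activate Asns, whose promoter is a textbook example.

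In senescent macrophage medium the genes of asparagine synthesis and of both steps from glutamate to proline were higher, Glul and Got2 were slightly lower, and Got1 and Gpt2 did not pass the test. Pycr1 was 2.60-fold, Asns 1.93-fold and Aldh18a1 1.27-fold as high as in control medium. Prodh was close to the detection limit in all 6 libraries. Of the 8 genes, 7 passed the filter on low counts. Among these 7, 3 were called higher, where 24.6% of all 14644 tested genes were, and 2 were called lower, where 24.9% of all tested genes were (edgeR quasi-likelihood test, Benjamini-Hochberg adjustment over all tested genes, threshold 0.05). The libraries of the 2 media did not overlap for the same 3 higher and 2 lower genes, where 27.8% of tested genes were higher and 28% lower without overlap. Because 49.5% of tested genes were called in either direction, the calls alone do not set these enzymes apart. With libraries scaled by their totals instead of TMM, 2589 of all tested genes were higher and 4813 lower, in place of 3607 and 3644, and the calls of the enzyme genes stayed as given. By size, 2.63% of tested genes were called higher by at least 2-fold, as Pycr1 was, and 6.69% by at least 1.5-fold, as Pycr1 and Asns were. The median log2 fold change of the 7 genes was −0.009, and that of all tested genes was −9.61e-04. In bulk RNA, a change in the share of cells that use a gene and a change in RNA per cell cannot be told apart.

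The promoters of Asns, Pycr1, Got1 and Aldh18a1 are printed below, because 3 of these hold the element that ATF4 and C/EBP factors bind and because they belong to genes that moved differently. They are the RefSeq windows of build GRCm38.p6, from 250 bases before to 50 bases after the transcription start, written 5′ to 3′ on the gene's strand. Capitals mark matches to the core of the C/EBP-ATF response element, searched as TGATGNAA on both strands.
Asns, chr6:7693160-7693459, minus strand: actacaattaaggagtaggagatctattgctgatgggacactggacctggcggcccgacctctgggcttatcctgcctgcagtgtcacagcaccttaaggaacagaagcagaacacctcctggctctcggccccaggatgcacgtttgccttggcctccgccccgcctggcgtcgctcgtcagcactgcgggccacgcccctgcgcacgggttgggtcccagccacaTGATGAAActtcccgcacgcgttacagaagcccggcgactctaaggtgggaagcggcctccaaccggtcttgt
Pycr1, chr11:120643699-120643998, minus strand: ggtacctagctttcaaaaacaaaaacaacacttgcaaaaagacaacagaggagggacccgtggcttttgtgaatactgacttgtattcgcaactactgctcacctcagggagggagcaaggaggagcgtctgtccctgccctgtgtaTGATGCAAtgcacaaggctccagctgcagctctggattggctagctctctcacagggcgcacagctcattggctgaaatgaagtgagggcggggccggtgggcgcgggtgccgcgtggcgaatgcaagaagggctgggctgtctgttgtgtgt
Got1, chr19:43524556-43524855, minus strand: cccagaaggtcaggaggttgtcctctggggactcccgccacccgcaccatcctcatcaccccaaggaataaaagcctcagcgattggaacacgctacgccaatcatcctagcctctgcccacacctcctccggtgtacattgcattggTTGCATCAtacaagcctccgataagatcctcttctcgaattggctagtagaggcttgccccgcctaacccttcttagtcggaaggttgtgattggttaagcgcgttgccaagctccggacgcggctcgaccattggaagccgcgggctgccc
Aldh18a1, chr19:40588414-40588713, minus strand: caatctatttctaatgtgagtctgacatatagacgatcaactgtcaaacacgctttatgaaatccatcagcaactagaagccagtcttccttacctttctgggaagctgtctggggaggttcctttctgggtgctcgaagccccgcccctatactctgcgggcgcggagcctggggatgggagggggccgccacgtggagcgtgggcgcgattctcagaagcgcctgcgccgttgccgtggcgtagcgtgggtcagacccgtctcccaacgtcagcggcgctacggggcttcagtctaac

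All 8 genes had a promoter in the RefSeq table, and 3 of them held the motif. In Asns the match was TGATGAAA on the gene's own strand, from position −23 to −16 relative to the start. In Pycr1 it was TGATGCAA, again on the gene's own strand, from −103 to −96. Got1 held the same letters on the opposite strand, from −102 to −95, where the gene's strand reads TTGCATCA. No match was found in the windows of Aldh18a1, Got2, Gpt2, Glul and Prodh. The motif was present in 3.97% of the 32851 promoters in the table, and in at least 1 promoter of 4.51% of the 27025 genes. Having the letters and rising did not go together in every case: Asns and Pycr1 had them and rose, Got1 had them and did not pass the test, and Aldh18a1 rose without them in this window. A match describes the sequence and is not a measurement of binding.

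**Figure D1:**
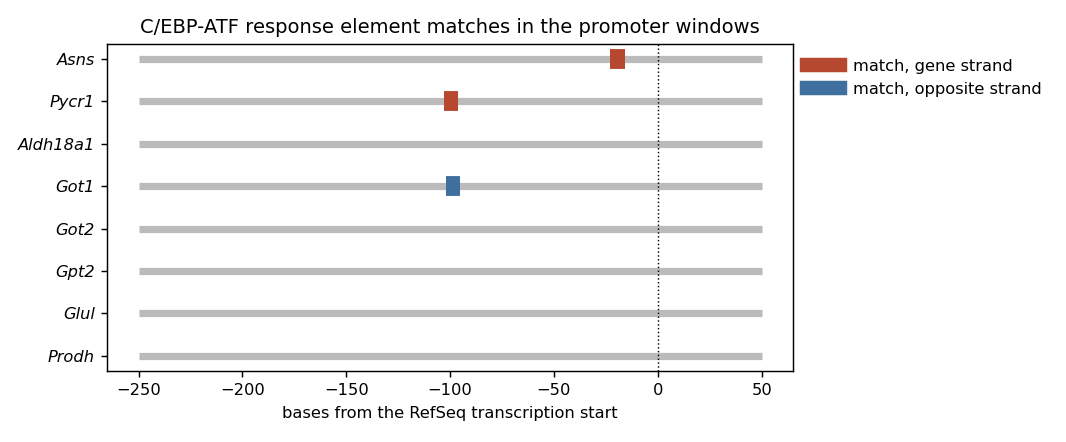
Positions of TGATGNAA matches in the promoter windows of the 8 enzyme genes, in bases from the RefSeq transcription start (dotted line), with red for matches on the gene's strand and blue for matches on the opposite strand. Asns, Pycr1 and Got1 each hold 1 match, and those of Pycr1 and Got1 lie at nearly the same distance from the start.

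Asns is the gene that makes asparagine. It had 73.9, 81.9 and 79.7 CPM (counts scaled to a common library size after TMM adjustment) in the libraries of senescent medium, against 41.6, 37.5 and 43.0 CPM in those of control medium. Every library of senescent medium lay above every library of control medium, as it did, in either direction, for 55.8% of tested genes. The means were 78.5 ± 4.11 CPM in senescent medium and 40.7 ± 2.88 CPM in control medium (SD, n = 3 each). The log2 fold change was 0.95 ± 0.056 (here and below, ± after a log2 value is the SE, and ± after a level is the SD over 3 libraries), with an edgeR adjusted p of 5.45e-15. In absolute log2 fold change Asns ranked 1025 of 14644 tested genes.

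The partner enzymes of asparagine and aspartate moved less uniformly. Of 13 genes on that list 12 were tested, 5 were higher and 1 was lower, where 24.6% and 24.9% of all tested genes were. Asrgl1, whose product breaks asparagine down to aspartate, had 15.2 ± 2.35 CPM in senescent medium and 15.5 ± 0.922 CPM in control medium. Its log2 fold change was −0.03, with a 95% confidence interval of −0.24 to 0.17. The ratio of Asns to Asrgl1 within a library was 4.81, 4.69 and 6.23 in senescent medium, against 2.71, 2.55 and 2.60 in control medium. The groups did not overlap, and the log2 ratio differed by 0.99 (exact permutation test over 6 libraries, two-sided p = 0.1, the smallest this design allows; 0.14 after adjustment over 7 ratios). Nars1, the synthetase that charges tRNA with asparagine, rose to 235 ± 8.10 CPM in senescent medium, against 162 ± 2.20 CPM in control medium, a log2 fold change of 0.54 ± 0.037.

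Among the enzymes that consume aspartate, Ass1, which joins it to citrulline on the way to arginine, rose to 205 ± 8.2 CPM in senescent medium, against 129 ± 9.86 CPM in control medium. The isozymes of adenylosuccinate synthase, which use aspartate to make AMP, moved apart. Adss1, the form known from muscle, had 11.7 ± 0.694 CPM in senescent medium and 4.65 ± 0.759 CPM in control medium, a log2 fold change of 1.33 ± 0.13. Adss2, the more widely expressed form, fell to 64.1 ± 1.31 CPM in senescent medium, against 77.8 ± 1.96 CPM in control medium (−0.28 ± 0.047). Adsl, the next enzyme of that route, rose by 0.38 ± 0.076 on the log2 scale. All 4 genes passed the edgeR test, with adjusted p-values of 6.27e-12, 4.09e-10, 8.26e-06 and 9.56e-05 in the order given.

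**Figure D2:**
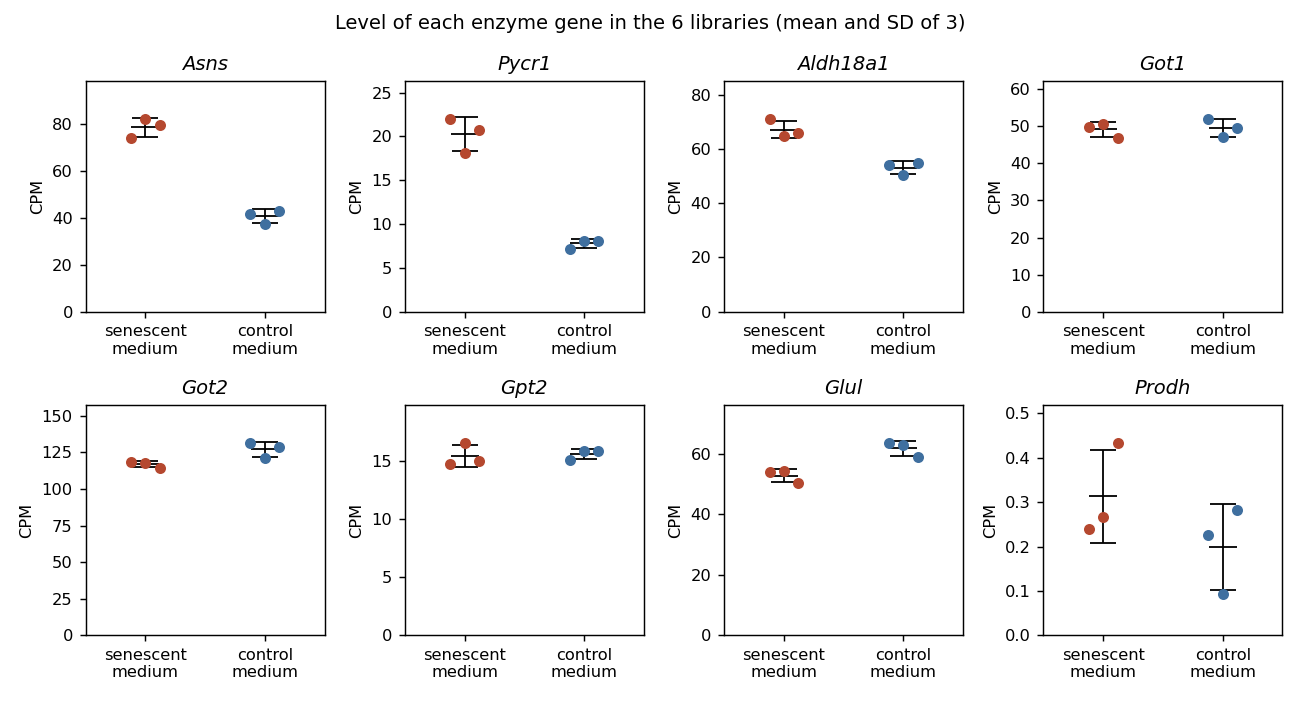
CPM of the 8 enzyme genes in each library, with points for single libraries, bars for the mean and SD of 3, and senescent medium left of control medium; each vertical axis starts at 0. The groups are apart for Asns, Pycr1 and Aldh18a1, which are higher in senescent medium, and for Got2 and Glul, which are lower; they overlap for Got1, Gpt2 and Prodh.

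Pycr1 showed the largest change of the group. Its levels were 21.9, 18.2 and 20.8 CPM in the libraries of senescent medium, against 7.21, 8.07 and 8.10 CPM in those of control medium. The lowest library of senescent medium was above the highest of control medium. The log2 fold change was 1.38 ± 0.10, with a 95% confidence interval of 1.18 to 1.58 and an edgeR adjusted p of 5.53e-13. It ranked 389 of 14644 tested genes in absolute log2 fold change.

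Pycr3, the cytosolic paralogue of Pycr1, did not pass the test. It had 16.6 ± 0.551 CPM in senescent medium and 16.95 ± 0.586 CPM in control medium, a log2 fold change of −0.03 with a 95% confidence interval of −0.20 to 0.14 (edgeR adjusted p = 0.810).

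Aldh18a1, the enzyme that starts proline synthesis from glutamate, rose less. It had 70.9, 64.9 and 65.8 CPM in senescent medium, against 54.2, 50.3 and 54.7 CPM in control medium. The groups did not overlap, and the log2 fold change was 0.34 ± 0.052 (edgeR adjusted p = 2.10e-06). Aldh4a1, which runs the opposite way by oxidising pyrroline-5-carboxylate to glutamate, had 78.0 ± 2.88 CPM in senescent medium and 79.4 ± 3.14 CPM in control medium. Its log2 fold change was −0.03, with a 95% confidence interval of −0.12 to 0.07. The ratio of Aldh18a1 to Aldh4a1 was 0.947, 0.806 and 0.838 in senescent medium, against 0.695, 0.652 and 0.659 in control medium, a log2 difference of 0.37 with no overlap (exact permutation p = 0.1, adjusted over 7 ratios 0.14).

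Proline can also be made from ornithine, through the aminotransferase encoded by Oat. Oat fell slightly, to 280 ± 3.14 CPM in senescent medium, against 315 ± 7.50 CPM in control medium (log2 fold change −0.17 ± 0.034, edgeR adjusted p = 1.11e-04). Odc1, which takes ornithine into polyamines instead, rose to 164 ± 8.35 CPM in senescent medium, against 70.0 ± 1.21 CPM in control medium (1.23 ± 0.044, edgeR adjusted p = 1.97e-20). Of the 13 proline and arginine partner genes 10 were listed and tested, with a median log2 fold change of 0.11. Of these 3 were higher and 1 was lower, where 24.6% and 24.9% of all tested genes were. The other genes higher were Ass1, which the aspartate list also holds, and L3hypdh, a hydroxyproline-degrading enzyme, whose libraries overlapped. Pepd, which releases proline from collagen dipeptides, had a log2 fold change of −0.005 with a 95% confidence interval of −0.15 to 0.14.

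Prodh, the enzyme that breaks proline down, was barely detected. Its counts were 5, 5 and 9 in the libraries of senescent medium and 4, 2 and 5 in those of control medium, or 19 and 11 in all. The groups overlapped, and the filter on low counts removed the gene before testing. In a fit of all 18124 genes without a filter its log2 fold change was 0.67 ± 0.73 (edgeR adjusted p = 0.509). A difference was not detectable at this depth. The ratio of Pycr1 to Prodh, 91.4, 68.2 and 48.0 in senescent medium and 32.0, 87.5 and 28.8 in control medium, overlapped and rests on these few Prodh counts (exact permutation p = 0.3).

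The aminotransferases showed little change. Got1 had 49.9, 50.7 and 46.9 CPM in senescent medium, against 51.8, 47.1 and 49.5 CPM in control medium. The groups overlapped, and the log2 fold change of −0.009 had a 95% confidence interval of −0.12 to 0.10 (edgeR adjusted p = 0.912). Gpt2 had 14.7, 16.6 and 15.05 CPM in senescent medium, against 15.2, 15.9 and 15.9 CPM in control medium. These too overlapped, with a log2 fold change of −0.02 and a 95% confidence interval of −0.20 to 0.16 (edgeR adjusted p = 0.866). Its cytosolic relative Gpt was low, at 1.27 ± 0.359 CPM in senescent medium and 0.983 ± 0.434 CPM in control medium, and did not pass the test.

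Got2 had 118, 118 and 115 CPM in senescent medium, against 131, 121 and 128 CPM in control medium. The groups did not overlap, and the log2 fold change was −0.12 ± 0.041 (edgeR adjusted p = 0.0190). The difference was borderline: DESeq2 gave an adjusted p of 0.0512. Leaving out 1 library in edgeR gave adjusted p-values of 0.0849 without senescent replicate 3, 0.0544 without control replicate 1 and 0.0592 without control replicate 3. Got2 counts were fractional in all 6 libraries, and a processed copy, Got2-ps1, held 25.9% to 28.8% of the counts of both, so reads may be split between them. With the counts of both summed, the log2 fold change was −0.12 ± 0.038 (edgeR adjusted p = 0.0131). The ratio of Got1 to Got2 was 0.421, 0.430 and 0.409 in senescent medium, against 0.395, 0.389 and 0.385 in control medium, a log2 difference of 0.11 without overlap (exact permutation p = 0.1, adjusted over 7 ratios 0.14). The ratio of Gpt2 to Got2 overlapped between the media (exact permutation p = 0.2).

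Glul, which makes glutamine, fell slightly. It had 53.9, 54.1 and 50.3 CPM in senescent medium, against 63.4, 62.8 and 58.9 CPM in control medium. The libraries of both media did not overlap, and the log2 fold change was −0.23 ± 0.052 (edgeR adjusted p = 5.19e-04).

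**Figure D3:**
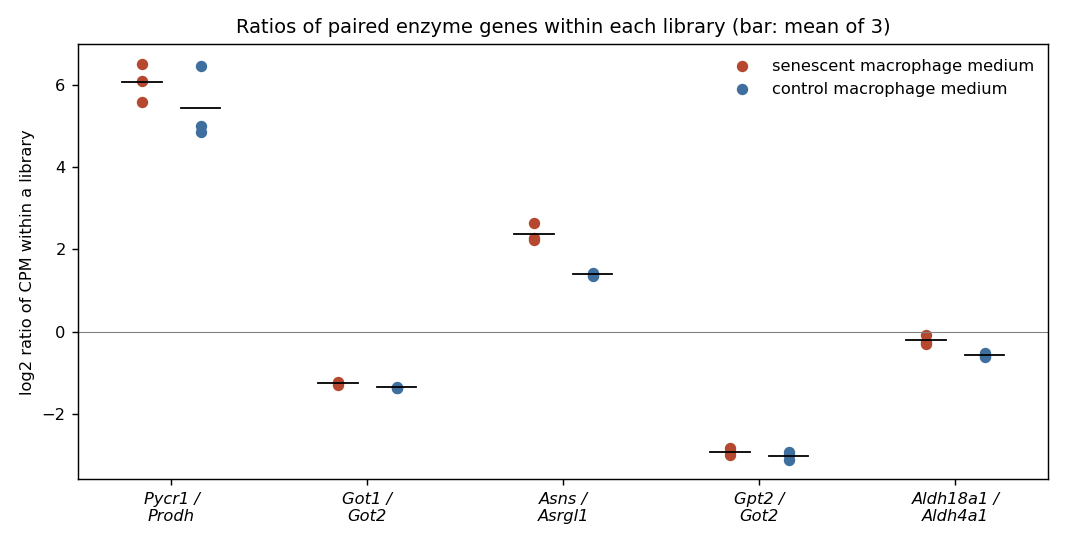
Log2 ratios of CPM of paired enzyme genes within each library, with senescent medium (red) left of control medium (blue) and a bar for the mean of 3. The media do not overlap for Got1 to Got2, Asns to Asrgl1 and Aldh18a1 to Aldh4a1, and overlap for Pycr1 to Prodh and Gpt2 to Got2.

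The wider list of glutamine and glutamate enzymes moved both ways. Of 21 genes 20 were tested, with a median log2 fold change of 0.08. Of these 7 were higher and 8 lower, where 24.6% and 24.9% of all tested genes were. The higher genes included Gclm, the regulatory subunit of the enzyme that starts glutathione synthesis from glutamate, with 340 ± 14.6 CPM in senescent medium and 221 ± 2.92 CPM in control medium. Aldh5a1, which acts in a later step of the breakdown of the glutamate product GABA, had 14.6 ± 1.12 CPM in senescent medium and 7.75 ± 1.35 CPM in control medium. The lower genes included Gfpt2, which makes hexosamines, at −0.61 ± 0.049, and Ppat, which starts purine synthesis, at −0.54 ± 0.11, and also the CTP synthase genes Ctps1 and Ctps2 and the GMP synthase gene Gmps. Pfas, a later enzyme of purine synthesis that also takes nitrogen from glutamine, was not called (0.03 ± 0.092, edgeR adjusted p = 0.821). Gfpt1, the paralogue of Gfpt2, rose by 0.20 ± 0.039 on the log2 scale. Glud1, which converts glutamate to 2-oxoglutarate, fell by 0.14 on the log2 scale, and Bcat1, which makes glutamate from branched-chain amino acids, had 86.3 ± 2.12 CPM in senescent medium and 122 ± 3.16 CPM in control medium. With libraries scaled by their totals, 4 genes of this list were higher in place of 7.

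Levels can be compared between the genes only per length, here as CPM per kilobase of annotated exon. In senescent medium Asns was highest, at 28.7 ± 1.5, followed by Got2 (24.2 ± 0.432), Got1 (19.4 ± 0.794), Aldh18a1 (16.5 ± 0.793), Glul (15.9 ± 0.644), Pycr1 (5.16 ± 0.491), Gpt2 (2.74 ± 0.173) and Prodh (0.0401 ± 0.0134). In control medium Got2 was highest, at 26.3 ± 1.08, followed by Got1 (19.5 ± 0.926), Glul (18.6 ± 0.731), Asns (14.9 ± 1.05), Aldh18a1 (13.0 ± 0.593), Gpt2 (2.77 ± 0.0753), Pycr1 (1.98 ± 0.128) and Prodh (0.0256 ± 0.0125). Asns thus stood first of the 8 in senescent medium and the fourth in control medium, and Pycr1 and Gpt2 changed places. The first place of Asns holds only for Got2 as counted: with the counts of Got2-ps1 added, Got2 had 33.2 ± 0.153 in senescent medium and 35.96 ± 1.5 in control medium, above Asns in both. Neighbours whose libraries overlapped were Aldh18a1 and Glul in senescent medium, and Got1 and Glul in control medium. Exon lengths came from GENCODE M21 and cover all annotated transcripts, which lowers the value of genes with long, rarely used exons.

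The ATF4 and amino acid response genes outside this group were mostly higher. Of 31 listed genes 30 were tested, with a median log2 fold change of 0.57. Of these 24 were higher and 2 lower, where 24.6% and 24.9% of all tested genes were. Atf4 itself had 205 ± 3.39 CPM in senescent medium and 129 ± 5.44 CPM in control medium (0.67 ± 0.039), and Ddit3, the stress factor CHOP, had 64.4 ± 1.08 CPM in senescent medium and 26.4 ± 1.24 CPM in control medium (1.29 ± 0.057). The smallest adjusted p-values among the higher genes were those of Atf5 (1.52 ± 0.036), Slc7a5 (1.58 ± 0.053) and Vldlr (1.66 ± 0.060). The lower genes were Slc38a2, a carrier of small neutral amino acids such as glutamine and proline, with 125 ± 4.06 CPM in senescent medium and 246 ± 10.8 CPM in control medium (−0.98 ± 0.040), and Cebpb (−0.15 ± 0.037). All 7 passed the edgeR test. The log2 fold changes of Asns (0.95) and Pycr1 (1.38) lay above the median of this list, and those of Aldh18a1 (0.34), Got1 and Gpt2 below it. Among the genes named here, Vldlr held TGATGNAA in its promoter window, while Atf4, Ddit3, Atf5, Slc38a2 and Cebpb did not. Slc7a5 had no promoter in the RefSeq table and was not searched. Of the 25 list genes with a promoter in the RefSeq table, 7 held it, where 4.51% of all genes with a promoter did. In 6 of these 7 it was present as TGATGCAA, the form found in Pycr1 and Got1, and TGATGAAA, the form found in Asns, was present in 0 of the 25.

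**Figure D4:**
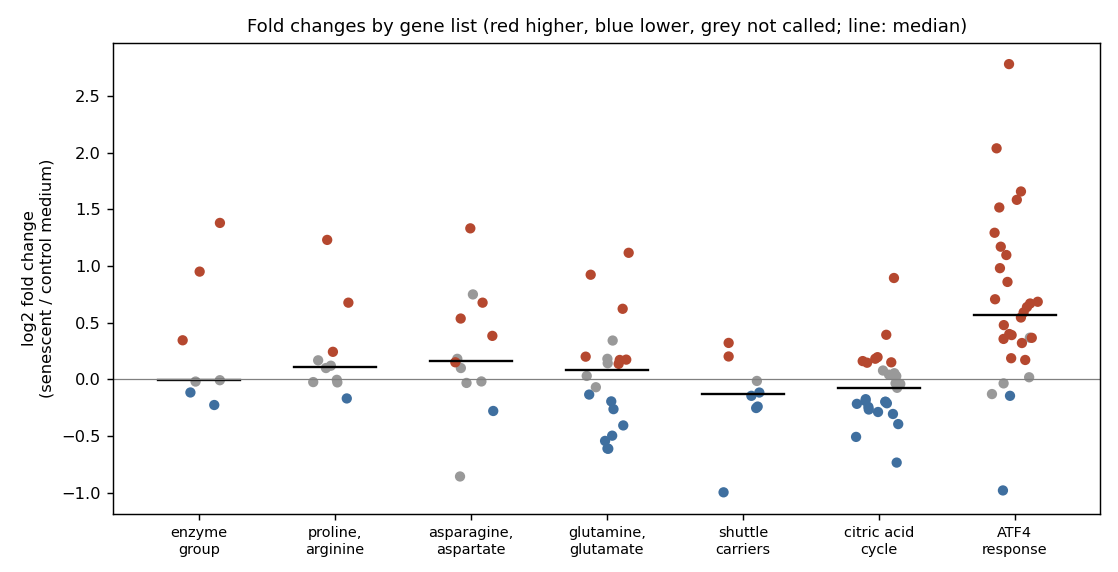
Log2 fold changes, senescent over control macrophage medium, of every tested gene of 7 lists, with a line at each list's median; red genes are called higher, blue ones lower and grey ones are not called. The ATF4 response list lies mostly above 0, with a median of 0.57, while the medians of the enzyme group and of the other lists lie between −0.13 and 0.16.

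Collagen genes of a chosen list, whose products use proline, were mostly higher, with a median log2 fold change of 0.48. The list does not cover every collagen gene. Of the 21 listed, all tested, 16 were higher and 3 lower, where 24.6% and 24.9% of all tested genes were. Col1a1, a collagen 1 gene, had 7516 ± 229 CPM in senescent medium and 5361 ± 69.8 CPM in control medium (0.49 ± 0.033). The log2 fold change of Pycr1 was above the highest of the collagen genes, 1.35, and that of Aldh18a1 below their median.

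Library totals were 19420750 to 21659434 estimated counts in senescent medium and 17228162 to 21225833 in control medium. Of the 7 markers of the sorted cells, Col1a1, Col1a2, Ly6a, Pdgfra, Pdgfrb, Thy1 and Cd34, all were detected, and their summed level was 13897 to 14433 CPM in senescent medium and 10666 to 10768 CPM in control medium. That sum is mostly Col1a1 and Col1a2, which were higher. Thy1 and Cd34 were also called higher, while Pdgfra (log2 fold change −0.29 ± 0.036) and Pdgfrb (−0.30 ± 0.034) were called lower, and Ly6a, the gene of Sca-1, was not called (0.03 ± 0.035). Of 8 macrophage markers 4 were listed, with a sum of 14.97 to 20.1 CPM in senescent medium and 11.9 to 14.3 CPM in control medium, and Ptprc, Adgre1, Itgam and Tyrobp were not listed. Of 5 myogenic markers Des alone was listed, at 4.33 to 5.86 CPM in senescent medium and 1.41 to 1.89 CPM in control medium. Des was called higher (log2 fold change 1.65 ± 0.20). The 3 listed of 4 endothelial markers summed to 25.7 to 32.5 CPM in senescent medium and 23.5 to 25.98 CPM in control medium, and 3 of 3 mural markers to 23.2 to 28.5 CPM in senescent medium and 14.9 to 21.5 CPM in control medium. Of the mural markers Cspg4 was called higher (0.97 ± 0.14), Mcam was called lower (−0.98 ± 0.18) and Rgs5 was not called (−0.37 ± 0.22). Of the macrophage markers Lyz2 was called higher (0.80 ± 0.12) and Csf1r lower (−0.53 ± 0.19). Of the endothelial markers Tek, which makes up most of their sum, was not called (0.18 ± 0.078). Kdr was called higher (1.25 ± 0.34), at 1.68 ± 0.458 CPM in senescent medium and 0.710 ± 0.176 CPM in control medium. The part of these markers in the changes of the enzyme genes was not tested.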

How the data were processed

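The values are estimated counts per gene, which the authors deposited without normalization. The submitters' processing notes name STAR, DESeq2 and mm39 but not what each was used for. How reads were assigned to genes, with which annotation and strand setting, is not given in the sources used here. Libraries were read as 150 bp pairs, per the labels' protocols. No gene in the table had fewer than 10 counts over the 6 libraries. Within a tolerance of 0.01, between 70.3% and 72.8% of values were whole. Counts were rounded before testing.

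Symbols were matched by Ensembl identifier for 18092 genes, with GENCODE M21 (GRCm38) for exon lengths; 6 list genes were found under older symbols, such as Pycr3 as Pycrl. Because mm39 and GRCm38 differ, coordinates are given only for RefSeq promoter windows. The main test was edgeR 4.0.16 (R 4.3.3) with TMM scaling, its expression filter and robust quasi-likelihood fits, medium as the only term, and Benjamini-Hochberg adjustment over 14644 genes at 0.05. It was also tested on simulated data. Confidence intervals are at 95% and cover the spread between libraries. CPM values use TMM-adjusted library sizes. Ratios of CPM within a library were compared by an exact permutation test, two-sided, with adjustment over 7 pairs; some ratios and list genes are not reported here. Alternatives were DESeq2 1.42.0, limma-voom (limma 3.58.1), other scalings and filters, a threshold of 0.01, a replicate term and each library left out.

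The 8 genes, the lists and the pairs were chosen with earlier results of these data known. All 8 enzymes and the genes of the 3 partner lists could be named, and of the carrier, citric acid cycle and ATF4 lists the 3 genes with the smallest adjusted p in each direction, with Atf4 and Ddit3. Antisense overlap covered 9.00% of the exons of Got2 and 3.49% of those of Glul. A planned comparison of the proline and asparagine content of encoded proteins was not analysed here.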

Additional observations from a re-analysis of the deposited data

How the results depend on the processing

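Over all alternatives the log2 fold change stayed between 0.87 and 0.99 for Asns, 1.3 and 1.45 for Pycr1, 0.26 and 0.37 for Aldh18a1 and −0.31 and −0.19 for Glul, and these 4 kept their calls in every alternative that gave a p-value. Got1 (−0.09 to 0.03) and Gpt2 (−0.10 to 0.01) stayed uncalled in the same alternatives. Removal of the GC and length trend gave values but no p-value. Got2 kept its sign but missed the threshold with DESeq2 (log2 fold change −0.115, adjusted p = 0.0512) and at a threshold of 0.01 (−0.117), leaving 1 gene of the group called lower in both; without single libraries it ranged from −0.151 to −0.0943, and the group had 1 to 2 genes called lower. Of the carrier list, 1 gene in place of 2 was higher with DESeq2, with library totals and at a threshold of 0.01, and 1 to 2 were without single libraries (1 without senescent replicate 1 or 2 or control replicate 1 or 2). With library totals, 4 glutamine and glutamate genes and 4 citric acid cycle genes were higher in place of 7 each; that scaling shifted the median log2 fold change of all genes to −0.082. The cause was not tested.

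Whether replicate numbers pair the libraries is not stated. Deviations of same-numbered libraries correlated at 0.019, 0.002 and 0.026. The highest correlation with a library of another number was 0.004, 0.027 and 0.023 in the same order. With so few libraries these weak values cannot settle whether the libraries are paired. With a replicate block 3704 genes were higher and 3698 lower, against 3607 and 3644 without it; the log2 fold changes of Asns, Pycr1, Aldh18a1 and Glul were 0.95, 1.37, 0.34 and −0.23, and the counts of calls in the group and its lists were the same. With the block as a sign flip over 3 pairs, the differences in log2 ratio are the same by construction. The exact sign-flip p was 0.25 to 0.5, and 3 pairs allow none below 0.25. Prodh entered only the fit without a filter, and its few counts limit any statement on it. The planned comparison of encoded proteins was not run. Summing Got2 and its copy was chosen after seeing the data.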

Other observations

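Carriers and dehydrogenases that work beside the aspartate aminotransferases were mostly lower in senescent macrophage medium. Of 8 genes of the malate-aspartate shuttle and related carriers, 2 were higher and 5 lower, with a median log2 fold change of −0.13. Among all tested genes 24.6% were higher and 24.9% lower. Slc25a10, a mitochondrial dicarboxylate carrier, had 18.6 ± 1.74 CPM in senescent medium and 37.2 ± 1.22 CPM in control medium (−0.998 ± 0.073). Mdh1, the cytosolic malate dehydrogenase, and Slc25a11, the malate carrier, changed by −0.24 ± 0.045 and −0.25 ± 0.048. Slc25a12, an aspartate-glutamate carrier, rose to 46.6 ± 2.05 CPM in senescent medium, against 37.3 ± 0.682 CPM in control medium (0.32 ± 0.057), and Slc25a22, a glutamate carrier, rose by 0.20 ± 0.073 on the log2 scale with overlapping libraries.

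Of 27 tested citric acid cycle and linked genes 7 were higher and 13 lower, with a median of −0.08. Among all tested genes 24.6% were higher and 24.9% lower. Pcx, which makes oxaloacetate from pyruvate, had 29.4 ± 1.87 CPM in senescent medium and 49.0 ± 1.98 CPM in control medium (−0.74 ± 0.062), and Idh2 and Sdha changed by −0.51 ± 0.060 and −0.29 ± 0.037. Pck2, the mitochondrial enzyme that turns oxaloacetate into phosphoenolpyruvate, had 84.8 ± 2.83 CPM in senescent medium and 64.6 ± 0.538 CPM in control medium (0.39 ± 0.046), and Sdhc rose by 0.18 ± 0.040 on the log2 scale. All of these passed the edgeR test.

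The genes whose pattern over the 6 libraries was nearest to that of an enzyme gene were found among 10131 named genes with at least 5 CPM, as the smallest Euclidean distance between log2 CPM values centred on each gene's mean. For Asns these were Hsd3b7 (distance 0.072), Tmem205 (0.11) and Cpeb1 (0.11), and for Pycr1 P4htm (0.15), Mocos (0.15) and Fbln7 (0.20). For Aldh18a1 they were Fgd4 (0.063), Myc (0.066) and Ackr3 (0.072), and for Glul Wbp1 (0.034), Ttc8 (0.046) and Atf6b (0.050). The nearest were Ltbr (0.025) for Got1, Med25 (0.034) for Got2 and Cgrrf1 (0.039) for Gpt2. A similar fold change between the media is enough to make this distance small, and shared regulation was not tested.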
